A study of Sus scrofa with 6 samples.

Results

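The miR-30 family is a group of small regulatory RNAs (microRNAs, miRNAs) made from the hairpins of miR-30a, miR-30b, miR-30c, miR-30d and miR-30e. Its members were taken by name from a table of skin small RNA, and 10 of the 898 listed miRNAs belonged to it, 5 of them 5p products and 5 of them 3p products. A 5p product comes from the left arm of a hairpin and a 3p product from the right arm. ssc-miR-30d carries no arm in its name and is counted here with the 5p products, and a 3p product of miR-30d was not analysed here.

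The samples were pieces of skin from pigs of the Xiang breed of Sus scrofa, 3 of black skin (S03, S04 and S05) and 3 of white skin (S02, S06 and S07). All 6 were cleaned with alcohol, freed of hair and kept cold in RNAwait, a preservative. The labels give no animal, body site, age, sex or batch, so each p-value speaks of the spread among these libraries alone, and that spread may be technical. The series set out to find miRNAs that bear on melanin formation in these pigs.

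In animals, miR-30 miRNAs are loaded into Argonaute proteins and lower the translation and stability of messenger RNAs that pair with the seed at their 5′ end, and the 5p products of the family share a common seed. They are abundant in many tissues and are known as repressors of SNAI1, a driver of epithelial to mesenchymal transition, and of CCN2, a matrix-inducing growth factor. In human melanoma miR-30b and miR-30d have been tied to invasion through the enzyme GALNT7, and miR-30a is known as a repressor of the autophagy gene BECN1. Some of the 5p products differ from each other at only a few bases, so reads of one member can be assigned to another. The values of single members carry that uncertainty. Sequences were not compared here, so which members it touches was not tested.

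The values are RPM, the reads of a miRNA per 1e+06 miRNA reads of its library. Whole reads were recovered from them, 7332769 to 8647930 per library in black skin and 6454685 to 10165949 in white skin. Skin markers fixed for the check were partly present. miR-205 of keratinocytes reached 14237 ± 2596 RPM in black skin and 19830 ± 4277 RPM in white skin (SD, n = 3 each), while miR-203 had no row among those analysed here. Of the 5 melanocyte marker names, miR-204 and miR-146a had a row and miR-211, miR-509 and miR-514 had none. The 3 libraries of a colour are skin with all of its cell types, so more cells of a type and more RNA per cell cannot be told apart.

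The 6 precursors of the family lie in 3 pairs in the pig genome (build Sscrofa11.1, RefSeq). MIR30C-2 (chromosome 1, 51383782 to 51383861) and MIR30A (chromosome 1, 51412827 to 51412933) are 28965 bases apart, both inside the predicted gene LOC102157778. MIR30D (chromosome 4, 6948669 to 6948747) and MIR30B (chromosome 4, 6952794 to 6952869) are 4046 bases apart and outside annotated genes, with ZFAT, a zinc finger gene, 16822 bases beyond MIR30B. MIR30C-1 (chromosome 6, 170426781 to 170426860) and MIR30E (chromosome 6, 170429841 to 170429920) are 2980 bases apart, both inside the bounds of NFYC, a subunit of the transcription factor NF-Y. Each pair holds hairpins of different members, and ssc-miR-30c-5p can come from 2 of the 3 pairs.

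Together the 10 products held 1.82 ± 0.198% of the reads in black skin and 1.69 ± 0.0468% in white skin (SD, n = 3 each). Grouped by number in the name, the family ranked 11 of 181 name families by mean share over all 6 libraries. Its neighbours in that order were miR-10, with 1.39% in black skin and 2.20% in white skin, and miR-205, with 1.42% in black skin and 1.98% in white skin, so miR-30 stood above both in black skin and below both in white skin. Over all 6 libraries the 5 largest families were let-7, with ssc-let-7i as its leading row, and miR-21, miR-148, miR-27 and miR-143. The last of these held 7.02% in black skin and 2.88% in white skin, where miR-99 and miR-26 held more. The miR-199 rows summed to 3.53% in white skin. In that sum the 3p products of miR-199a and miR-199b have the same values. The same reads may thus be counted repeatedly, and the place of miR-199 relative to miR-143 was not tested. The 5p products held 1.54, 1.78 and 1.94% of the reads in black skin (S03, S04 and S05), against 1.66, 1.65 and 1.58% in white skin (S02, S06 and S07). Black skin thus had both the lowest and the highest family share, and the groups overlapped. The 3p products held 0.0612, 0.0692 and 0.0603% in the black libraries, against 0.0669, 0.0589 and 0.0552% in the white libraries, also with overlap. Of all miR-30 reads, 3p products made up 3.52 ± 0.439% in black skin and 3.56 ± 0.270% in white skin (SD, n = 3 each).

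**Figure D1:**
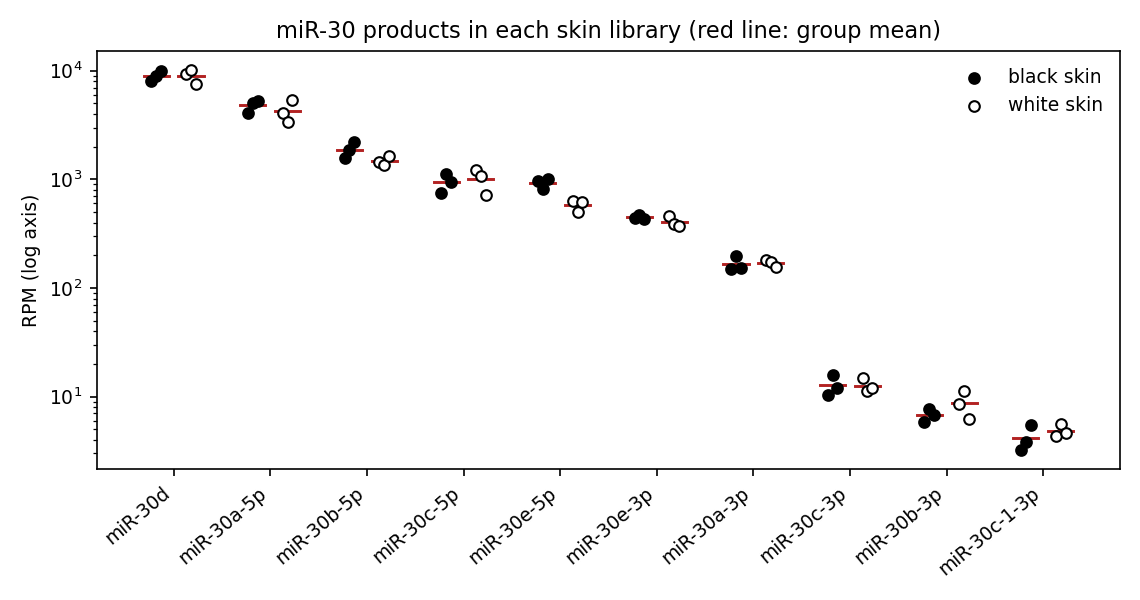
RPM on a log axis of the 10 miR-30 products in each library, with 1 point per library (filled, black skin; open, white skin) and the group mean as a red line, ordered by mean level. The groups overlap for all products except miR-30e-5p, for which the 3 black libraries (808 to 1015 RPM) lie above the 3 white ones (503 to 629 RPM).

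ssc-miR-30d was the most abundant member and had nearly equal means in the colours. It measured 8048, 9027 and 9910.2 RPM in black skin (libraries S03, S04 and S05 in that order, as throughout), against 9266, 10200.3 and 7507 RPM in white skin (S02, S06 and S07). In white skin S06 and S07 were the highest and the lowest of all 6, so the black values lay within the white range. The means were 8995 ± 931 RPM in black skin and 8991 ± 1367 RPM in white skin (SD, n = 3 each), and the difference on the log2(RPM + 1) scale was 0.0070 with a 95% interval of -0.38 to 0.40 (limma, adjusted p = 0.977). The interval leaves out a doubling, which would be 1 on this scale. ssc-miR-30d ranked 17 among the 280 miRNAs with a miRBase-style name.

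ssc-miR-30b-5p comes from the hairpin next to that of miR-30d. It measured 1578, 1847 and 2185 RPM in the black libraries, against 1444, 1357 and 1644 RPM in the white libraries. Of the black values only that of S03 fell within the white range, below S07. The means were 1870.2 ± 304 RPM in black skin and 1482 ± 147 RPM in white skin (SD, n = 3 each), a difference of 0.33 that did not pass the test (standard error 0.18, 95% interval -0.09 to 0.74, limma, adjusted p = 0.309). Although they share a locus, ssc-miR-30d and ssc-miR-30b-5p stood in a ratio that varied between libraries, 4.53 to 5.10 in black skin and 4.57 to 7.51 in white skin.

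ssc-miR-30a-5p was next in level after ssc-miR-30d. It measured 4085, 5046 and 5316 RPM in the black libraries, against 4040.2, 3372 and 5362 RPM in the white libraries. The white library S07 was the highest of all and S06 the lowest, so the groups overlapped fully. The means were 4816 ± 647 RPM in black skin and 4258 ± 1013 RPM in white skin (SD, n = 3 each; difference 0.19, 95% interval -0.27 to 0.66, limma, adjusted p = 0.645).

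ssc-miR-30c-5p, which can come from either miR-30c hairpin, measured 755, 1114 and 939 RPM in the black libraries, against 1229, 1071 and 712 RPM in the white libraries. Here S02 was the highest and S07 the lowest, again both white. The difference was -0.08 with a 95% interval of -0.64 to 0.47 (limma, adjusted p = 0.884), around means of 936 ± 179.7 RPM in black skin and 1004 ± 265 RPM in white skin (SD, n = 3 each).

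ssc-miR-30e-5p, from the NFYC locus, stood apart from the others in its values. It measured 967, 808 and 1015 RPM in black skin (S03, S04 and S05), against 629, 503 and 612 RPM in white skin (S02, S06 and S07). Every black library was above every white one. Its mean of 929.9 ± 108 RPM in black skin was 1.60 times that of 581 ± 68.1 RPM in white skin (SD, n = 3 each). The difference was 0.68 (standard error 0.19, 95% interval 0.26 to 1.09), with an unadjusted p of 0.00516 and an adjusted p of 0.0629 over all tested miRNAs (limma), so it missed the threshold of 0.05. It passed with upper-quartile scaling (adjusted p = 0.0452) and with a filter of 10 RPM in 3 libraries (adjusted p = 0.0471), and in no other setting run, where adjusted p reached 0.129 with all libraries and 0.220 without S05. Among the cell type markers, the summed rows of endothelium and of smooth muscle were also higher in every black library than in every white one. The 2 rows of miR-126 of the endothelium summed to 28989 to 35451 RPM in black skin and 17322 to 23899 RPM in white skin. The 4 rows of miR-143 and miR-145 of smooth muscle summed to 64998 to 84502 RPM in black skin and 26728 to 34192 RPM in white skin. Most of that sum was ssc-miR-143-3p, with means of 69866 RPM in black skin and 28574 RPM in white skin. Of the 4 smooth muscle rows, all 4 were above 0 and 2 were without overlap between the groups. Both rows of miR-126 and 1 of 4 smooth muscle rows, ssc-miR-143-3p, passed the test (limma, and with edgeR 0 of 2 and 1 of 4). For all tested miRNAs, 7.05% passed with limma and 27.3% were without overlap between the groups. Among the leukocyte markers 1 of 4 rows passed, ssc-miR-142-3p, with 190.2 ± 78.5 RPM in black skin and 49.1 ± 24.2 RPM in white skin (SD, n = 3 each; 1.96, limma, adjusted p = 0.0324), while the summed rows overlapped at 901 to 1570.0 RPM in black skin and 590.1 to 1321 RPM in white skin. Of the melanocyte markers 0 of 2 passed with limma and 1 of 2 with DESeq2. Of these, ssc-miR-204 measured 116 ± 24.6 RPM in black skin and 64.5 ± 6.68 RPM in white skin without overlap (SD, n = 3 each; 0.82, limma, adjusted p = 0.0804), and the summed rows overlapped at 2274 to 3804 RPM in black skin and 1863 to 3597 RPM in white skin. In the other direction, 1 of 8 fibroblast and mesenchymal rows passed, ssc-miR-214 (-0.88, limma, adjusted p = 0.0408). It measured 269 ± 42.1 RPM in black skin and 497 ± 88.0 RPM in white skin (SD, n = 3 each). Of the 8 rows, 4 were above 0 and 4 below, with a median difference of 0.0010. The miR-145 rows, also counted with smooth muscle, were among those above 0. The summed rows overlapped at 32662 to 42182 RPM in black skin and 35253 to 51155 RPM in white skin. The 3p products of miR-199a and miR-199b have the same values, both with a difference of -0.50. The same reads may thus be counted repeatedly in this sum, in the counts of rows and in the median. With limma 0 of 2 keratinocyte, 0 of 3 erythroid and 0 of 5 striated muscle rows passed. At an unadjusted p under 0.05 there were 0, 1 and 1 (limma), against 25.6% of all tested. DESeq2 called 0, 1 and 1 of these rows and edgeR 0, 0 and 1. Among them, ssc-miR-206 of striated muscle measured 9.19 ± 4.98 RPM in black skin and 77.8 ± 56.7 RPM in white skin (SD, n = 3 each; -2.56, limma, adjusted p = 0.0804). The erythroid ssc-miR-486 differed by -1.68 (limma, adjusted p = 0.0743). Above 0 were 1 of 3 erythroid and 3 of 5 striated muscle rows. The part of these markers in the miR-30e-5p values was not tested.

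Over the whole family, 0 of 10 products passed the test (limma with Benjamini-Hochberg adjustment over 454 tested miRNAs), against 7.05% of all tested. All 10 products were among the tested miRNAs. With edgeR, DESeq2 and limma-voom on the recovered reads the count was also 0 of 10. At an unadjusted p under 0.05 there was 1 of 10, miR-30e-5p, against 25.6% of all tested, and it was also the 1 of 10 without overlap between the groups, against 27.3%. The median difference of the 10 was 0.0059, beside 0.0022 for all tested, with 6 values above 0 and 4 below.

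**Figure D2:**
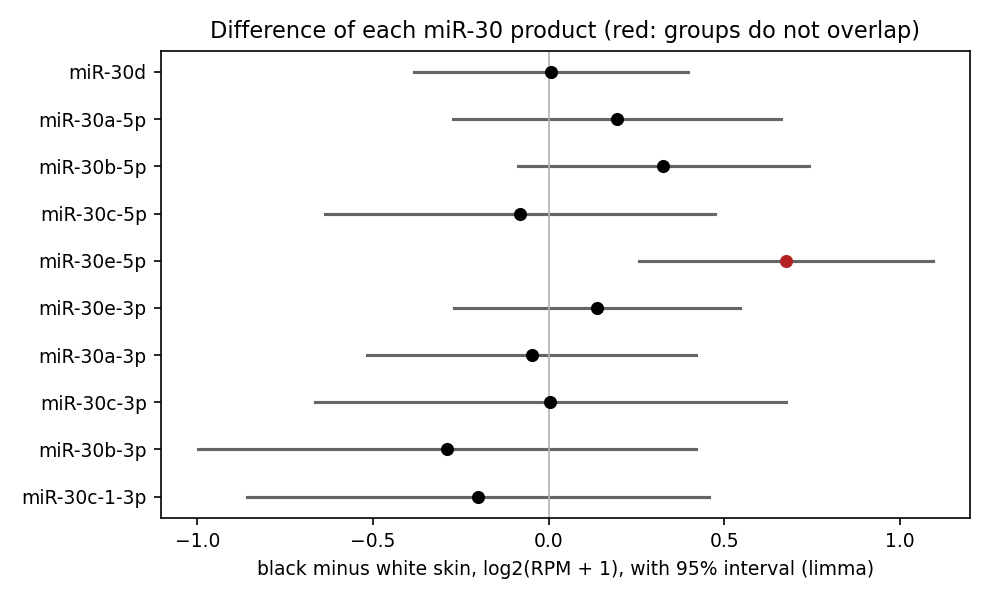
Difference in log2(RPM + 1), black minus white skin, of each miR-30 product with its 95% interval from limma, ordered by level. The interval of miR-30e-5p (0.26 to 1.09, red, groups without overlap) lies above 0 and the other 9 include 0.

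**Figure D3:**
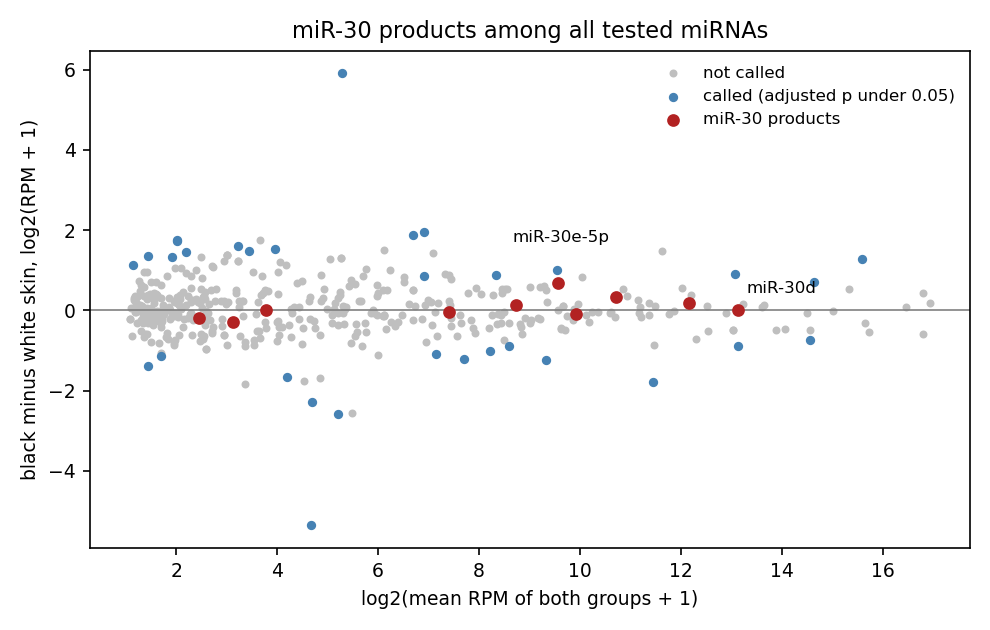
Difference in log2(RPM + 1), black minus white skin, against mean level for the 454 tested miRNAs, with the 32 called ones in blue and the 10 miR-30 products in red. The miR-30 products lie between -0.29 and 0.68, inside the cloud of miRNAs that were not called.

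The 3p products spanned a wide range of levels. ssc-miR-30e-3p was the most abundant and measured 443, 468 and 427 RPM in the black libraries, against 461, 387 and 373 RPM in the white libraries. The white library S02 fell among the black values, and the difference was 0.14 (95% interval -0.27 to 0.54, limma, adjusted p = 0.727). ssc-miR-30a-3p measured 149.9, 196 and 151 RPM in the black libraries, against 180.3, 174 and 157 RPM in the white libraries, a difference of -0.05 (95% interval -0.52 to 0.42, limma, adjusted p = 0.911). The white values lay inside the black range.

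The other 3p products were scarce, with 25 to 121 reads per library. ssc-miR-30c-3p measured 10.3 to 16.0 RPM in black skin and 11.2 to 14.8 RPM in white skin. ssc-miR-30b-3p measured 5.81 to 7.77 RPM in black skin and 6.20 to 11.3 RPM in white skin, and its difference of -0.29 had the widest 95% interval of the family, -1.0 to 0.42 (limma, adjusted p = 0.656). ssc-miR-30c-1-3p, which by its name belongs to MIR30C-1, measured 3.23 to 5.43 RPM in black skin and 4.38 to 5.58 RPM in white skin. The interval of ssc-miR-30b-3p reached a change close to a halving, which would be -1 on this scale.

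The order of levels was shared by nearly all libraries. In each of the 6, ssc-miR-30d was first, ssc-miR-30a-5p next and ssc-miR-30b-5p after that. The place below changed hands, since ssc-miR-30c-5p stood above ssc-miR-30e-5p in all 3 white libraries and in the black library S04, and below it in S03 and S05. The ratio of ssc-miR-30c-5p to ssc-miR-30e-5p was 0.781 to 1.38 in black skin and 1.16 to 2.13 in white skin. The groups overlapped in this ratio, and the order of these neighbours was the same in all white libraries but not in the black ones. Such orders between miRNAs also carry the different yields of each sequence in library making.

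As a share of the summed 5p RPM, 4 of the 5 members varied less among the black libraries than among the white ones, and ssc-miR-30e-5p varied more. Shares of the same pool are tied to each other, so the members are not separate observations. In RPM, ssc-miR-30b-5p (SD 304 against 147 RPM) and ssc-miR-30e-5p (108 against 68.1 RPM) varied more in black than in white skin. The other members varied less. The summed 5p share of all reads had an SD of 0.198 points in black skin and 0.0418 points in white skin (n = 3 each). Of the summed 5p RPM, ssc-miR-30d made up 52.1, 50.6 and 51.2% in black skin (S03, S04 and S05), against 55.8, 61.8 and 47.4% in white skin (S02, S06 and S07). ssc-miR-30a-5p made up 26.5, 28.3 and 27.4% in the black libraries, against 24.3, 20.4 and 33.9% in the white libraries. The standard deviation of the ssc-miR-30a-5p share was 0.909 points in black skin and 6.91 points in white skin, a contrast set by S06 and S07 and not tested with 3 libraries a group. ssc-miR-30b-5p made up 10.6 ± 0.579% in black skin and 9.10 ± 1.13% in white skin, and ssc-miR-30c-5p 5.33 ± 0.794% in black skin and 6.13 ± 1.48% in white skin (SD, n = 3 each). ssc-miR-30e-5p made up 6.27, 4.53 and 5.24% in the black libraries, against 3.79, 3.05 and 3.87% in the white libraries. Its share too was higher in every black library, and this value does not depend on how a library is scaled. The share rests on the same ssc-miR-30e-5p reads as its RPM, so it is not a separate observation.

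**Figure D4:**
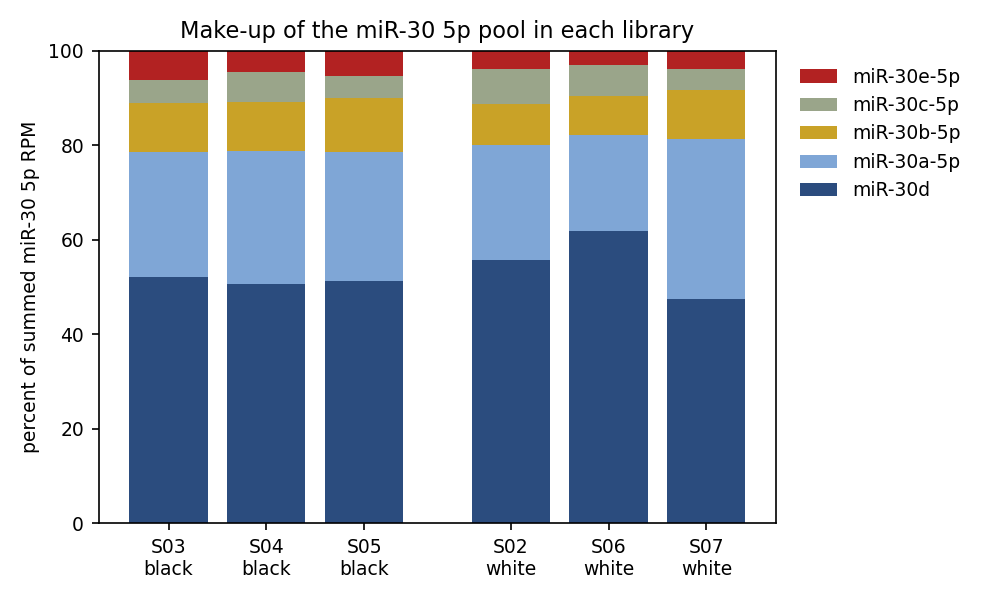
Percent of the summed 5p RPM held by each of the 5 miR-30 5p products in every library, black skin on the left and white skin on the right. miR-30d holds 47.4 to 61.8% of the pool, and miR-30e-5p, at the top of each bar, holds 4.53 to 6.27% in black skin and 3.05 to 3.87% in white skin.

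Whether members moved apart was asked of the 10 pairs of 5p products, with the log2 ratio of each pair compared between the colours. In 3 of the 10 pairs the groups did not overlap, against 29.6% of all pairs of tested miRNAs. All 3 contain ssc-miR-30e-5p and so rest on the same reads of it. The ratio of ssc-miR-30d to ssc-miR-30e-5p was 3.27 ± 0.21 in black skin and 3.94 ± 0.37 in white skin on the log2 scale, a difference of -0.67. The ratio of ssc-miR-30a-5p to ssc-miR-30e-5p differed by -0.48 and that of ssc-miR-30b-5p to it by -0.35. The two-sided exact permutation p was 0.1 for each of these 3, the smallest that 3 against 3 libraries allow, and 0.333 after adjustment over the 10 pairs. The ratio of ssc-miR-30c-5p to ssc-miR-30e-5p, whose hairpins share the NFYC locus, differed by -0.76 with overlap through S04 and S07 (exact permutation p = 0.2, adjusted 0.5). The other 6 pairs differed by between -0.13 and 0.41, with exact permutation p of 0.3 to 0.7, so no pair passed and none could have passed in this design.

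The hairpins used their arms unequally. For miR-30b the 3p product made up 0.364 ± 0.0566% of the reads of both arms in black skin and 0.595 ± 0.226% in white skin (SD, n = 3 each). On the mean over all 6 libraries this was the lowest 3p share of the 41 hairpins with both arms tested, although in white skin miR-17 (0.325%) and miR-339 (0.459%) were lower. For miR-30a the share was 3.35 ± 0.515% in black skin and 4.01 ± 1.06% in white skin, and for miR-30c, with both 3p rows summed, 1.78 ± 0.0423% in black skin and 1.78 ± 0.422% in white skin (SD, n = 3 each). miR-30e differed from these, with a 3p share of 31.4, 36.7 and 29.6% in black skin (S03, S04 and S05), against 42.3, 43.5 and 37.9% in white skin (S02, S06 and S07). Its lowest value was thus far above the highest of the other hairpins, 4.91%, and every black library was below every white one.

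**Figure D5:**
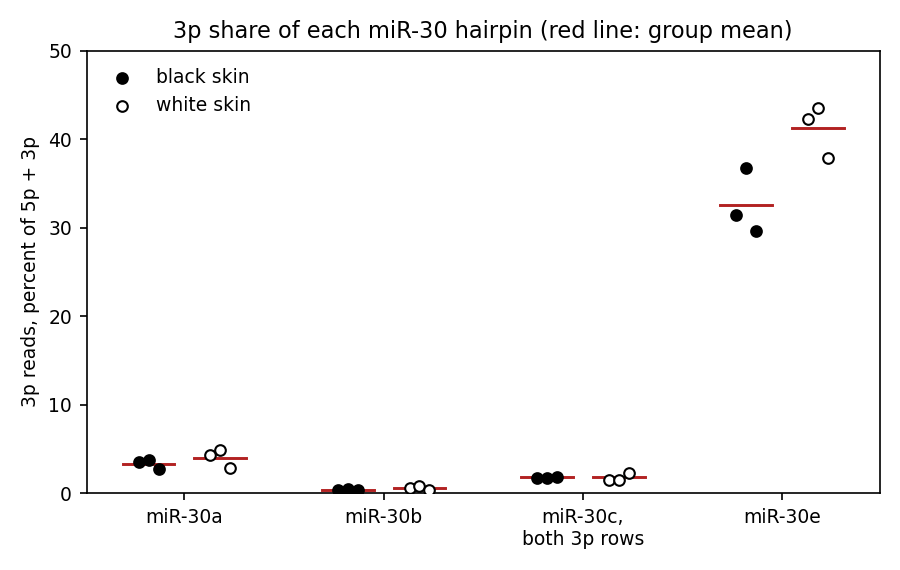
Percent of the reads of both arms that came from the 3p arm, for the miR-30 hairpins with a 3p row, with 1 point per library (filled, black skin; open, white skin) and the group mean as a red line. miR-30e lies at 29.6 to 36.7% in black skin and 37.9 to 43.5% in white skin, and the other hairpins lie below 5%.

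The 5p product divided by the 3p product, on the log2 scale, leaves out changes in the amount of the hairpin itself. For miR-30e it was 1.05 ± 0.24 in black skin and 0.51 ± 0.18 in white skin (SD, n = 3 each). The difference of 0.54 (standard error 0.24, 95% interval 0.0083 to 1.07) had an unadjusted p of 0.0470 and an adjusted p of 0.175 over the 41 hairpins (limma). The unadjusted p was 0.0318 without S07 and 0.0595 to 0.162 without any other single library (limma). For miR-30b the ratio was higher by 0.62 in black skin with overlap between the groups (95% interval -0.02 to 1.25, limma, adjusted p = 0.176), and for miR-30a by 0.24 (adjusted p = 0.651). For miR-30c, with ssc-miR-30c-3p, the difference was -0.09 (adjusted p = 0.890). As ssc-miR-30c-5p can come from either miR-30c hairpin, this ratio can also carry a change in hairpin amount. Thus 0 of 4 miR-30 hairpins passed, against 12.2% of the 41, with 1 of 4 at an unadjusted p under 0.05 (limma), against 26.8%, and 1 of 4 was without overlap, against 36.6%.

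The 3p rows of miR-30c were also compared with each other. ssc-miR-30c-3p has no copy number in its name and was not matched to a hairpin here. The level of a 3p product also carries arm use and the yield of its sequence, so hairpin amounts cannot be read from these ratios. ssc-miR-30c-3p exceeded ssc-miR-30c-1-3p in every library, by 2.21 to 4.18 times in black skin and 2.0 to 3.38 times in white skin. From the NFYC locus, ssc-miR-30e-3p exceeded ssc-miR-30c-1-3p by 78.6 to 137 times in black skin and 69.4 to 105 times in white skin. Hairpins 2980 bases apart thus gave 3p products of very unequal level in all 6 libraries.

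Outside the family, the named miRNAs with the pattern most like that of ssc-miR-30d over the 6 libraries were ssc-miR-125a, ssc-miR-365-3p and ssc-miR-28-3p. Their Pearson correlations with it on the log2(RPM + 1) scale were 0.936, 0.923 and 0.887, the highest of 232 compared, and are given as a description of 6 libraries that share their scaling. In ssc-miR-30d, ssc-miR-125a and ssc-miR-365-3p the lowest libraries were the black S03 and the white S07.

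Other miRNAs known as repressors of fibrosis or of epithelial to mesenchymal transition were set beside the family. Of 12 names in that list 7 had a row, with 7 rows tested, and 0 of 7 passed (limma, edgeR, DESeq2 or limma-voom), against 7.05% of all tested with limma, while 2 of 7 had an unadjusted p under 0.05 (limma), against 25.6%. The median difference was 0.28, beside 0.0022 for all tested, with 4 rows above 0 and 3 below. This median is the value of 1 scarce row, with means of 2.21 RPM in black skin and 1.72 RPM in white skin. ssc-miR-26a, a repressor of EZH2, measured 47780 ± 1186 RPM in black skin and 33990 ± 10098 RPM in white skin (SD, n = 3 each; difference 0.53, limma, adjusted p = 0.148), and passed without S02 (0.76, adjusted p = 0.0237). ssc-miR-29a, a repressor of collagens, measured 3700.5 ± 334 RPM in black skin and 3737 ± 529 RPM in white skin (SD, n = 3 each; limma, adjusted p = 0.976). ssc-miR-429, of the epithelial miR-200 family, measured 337 ± 43.5 RPM in black skin and 431 ± 136 RPM in white skin (SD, n = 3 each; difference -0.31, limma, adjusted p = 0.546).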

How the data were processed

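Small RNA of 3 black and 3 white skin samples was sequenced. The authors deposited 1 table in RPM; the unit was judged from column sums of 1e+06. The submitters' processing notes name Bowtie and the build Sscrofa11.1, with no version or role for Bowtie. How reads were counted and filtered, and against which miRNA database, is not given in the sources used here. All values (100%) were whole multiples of 1 read within 0.001, which gave the reads back.

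The main test was limma 3.58.1 (R 4.3.3, variance trend on level) for black minus white skin on log2(RPM + 1), adjusted by Benjamini-Hochberg over the 454 of 898 miRNAs kept by edgeR 4.0.16's filterByExpr (minimum count 10, minimum total 15), at a threshold of 0.05. This scale understates changes of scarce miRNAs. As RPM are shares, abundant miRNAs that change move every other value. Arm ratios were tested with limma without a trend over 41 hairpins, and pairs with a two-sided exact permutation test (scipy 1.17.1). Limma was tested on simulated data. Alternatives were TMM, RLE and upper-quartile scaling, predicted miRNAs left out, filters, pseudocounts of 0.1 and 10, edgeR (30 calls), DESeq2 1.42.0 (52 calls) and limma-voom on recovered reads, against 32 calls with limma, and leaving out each library.

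Members and lists were chosen with earlier results of these data known. Named are all miR-30 rows, the 3 miRNAs most like the leading member, and in the fibrosis list the called members and the 3 most abundant. Families were grouped by name, in place of the seeds the rule asked for, since no mature sequences were used here. The 6 precursors were matched in a RefSeq gene table of Sscrofa11.1. Reads after PCR are not independent molecules.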

Additional observations from a re-analysis of the deposited data

How the results depend on the processing

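Of 168 values of single miR-30 products under other settings, 149 kept their direction and side of the threshold, 2 newly passed and 17 turned sign. Those that newly passed were ssc-miR-30e-5p with upper-quartile factors (0.69) and with 10 RPM in 3 libraries (0.68), so that 1 member was called in each. Those that turned sign were close to 0: ssc-miR-30d and ssc-miR-30c-3p gave -0.023 and -0.023 with RLE factors, -0.082 and -0.079 with predicted miRNAs left out and -0.032 and -0.012 with DESeq2, ssc-miR-30d gave -0.0048 with edgeR and ssc-miR-30c-3p -0.0029 with limma-voom. Leaving out 1 library gave -0.12 to 0.10 for ssc-miR-30d, -0.16 to 0.14 for ssc-miR-30c-3p, -0.31 to 0.083 for ssc-miR-30c-5p, -0.17 to 0.019 for ssc-miR-30a-3p and 0.58 to 0.77 for ssc-miR-30e-5p. It gave 0.04 to 0.37 for ssc-miR-30a-5p, 0.21 to 0.44 for ssc-miR-30b-5p, 0.08 to 0.23 for ssc-miR-30e-3p and -0.49 to -0.10 for ssc-miR-30b-3p, with none called. The arm ratio ran from -0.28 to 0.056 for miR-30c, 0.07 to 0.48 for miR-30a, 0.36 to 0.89 for miR-30b and 0.44 to 0.67 for miR-30e, the pair of ssc-miR-30b-5p and ssc-miR-30e-5p from -0.44 to -0.20, the pair of ssc-miR-30a-5p and ssc-miR-30d from -0.064 to 0.49 and that of ssc-miR-30c-5p and ssc-miR-30d from -0.22 to 0.048. Calls over all miRNAs were 52 with DESeq2 and 7 to 41 on leaving out 1 library, with 0 members called in each of these fits, and the cause was not tested. With predicted miRNAs left out, the median of all tested was -0.14, ssc-miR-30e-5p was 0.59 and the calls were 16 higher and 19 lower, against 18 and 14. Under the filter of 10 RPM, ssc-miR-30b-3p and ssc-miR-30c-1-3p were not tested. No paired analysis was possible because the labels give no animal by which black and white libraries could be paired. In RPM, 3 reads are worth 0.295 to 0.465, well below the scarcest member.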
